A study of Arabidopsis thaliana with 4 samples.

Results

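The stretch of chromosome 2 from position 3140001 to 3410000 is 270 kb long and is named after a large insertion of mitochondrial DNA that the Columbia reference is known to carry near the centromere. Its members were all nucleosome calls with a position in that interval, 1663 of the 1253289 calls in the 4 deposited lists. The lists came from micrococcal nuclease sequencing of Arabidopsis thaliana inflorescences with unopened buds, an assay in which the nuclease digests the linker DNA and leaves the DNA that nucleosomes protect. There were 2 libraries of the accession Landsberg erecta (Ler) and 2 libraries of top1a-2, a mutant of TOP1α, a DNA topoisomerase I that relaxes supercoils. The labels give the ecotype of all 4 libraries as Landsberg erecta, name no other allele or agent, give no plant age, and do not say whether the replicates came from separate plants. Each p-value below thus covers only the spread among these libraries, which may be technical.

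A copy of mitochondrial DNA in a nuclear chromosome is wrapped on histones like its neighbours, whereas the DNA inside mitochondria is not. The copy on chromosome 2 is nearly identical in sequence to the organelle's own genome, so a short read from either source cannot be assigned to one of them by its sequence. The sources used here do not say how such reads were placed. The lists held calls on the 5 nuclear chromosomes and none on an organelle genome, and no sequence of their genome build was used, so the name of the stretch could not be checked and it is called the region below. Annotations of genes in it are not reported here for the same reason. The region was chosen by coordinates that were set with earlier values of these lists in view, call density and score among them, so its levels beside the rest of the chromosome are a description and carry no test. The reference was the left flank (2850001 to 3140000), the right flank (3410001 to 4350000) and the chromosome 2 arm from 6100001 to the last call at 19341109.

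Of the calls in the region, 463 were in Ler replicate 1 and 374 in Ler replicate 2, beside 464 in top1a-2 replicate 1 and 362 in top1a-2 replicate 2. Pairs of values are given below in that order of replicates. The lists as a whole held between 286541 and 335395 calls. Each call has a confidence score, a size in bp and a fuzziness, which is the spread of the position in bp. It also has forward and reverse votes, which are fractional and thus not plain read counts. Scores averaged close to 1 in every list, from 1.01 to 1.02. A score is read below relative to the rest of its library, but the sources do not say how it was defined or scaled. Read depth was unknown, and no counting interval can be given.

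Calls in the region were sparse and scored high. The density was 1.71 and 1.39 calls per kb in Ler and 1.72 and 1.34 calls per kb in top1a-2, against 2.81 and 2.55 and 3.02 and 2.82 calls per kb in the arm. The flanks lay between, at 2.02 to 2.18 calls per kb on the left and 2.29 to 2.54 calls per kb on the right. Every library thus had fewer calls per kb in the region than in any reference stretch, at 0.476 to 0.611 times its own arm. The median score of a call was 10.0 and 10.6 in Ler and 21.1 and 19.0 in top1a-2, whereas in the arm it was 0.801 and 0.788 in Ler and 0.699 and 0.714 in top1a-2. Scores in the region and in the arm barely overlapped. Between 90.5% and 96.3% of the calls in the region scored over 5, beside 0.00887% to 0.0225% of the calls in the arm. Of all calls over 5 in the genome, the region held 47.0% and 43.1% in Ler and 44.2% and 36.1% in top1a-2. It covered 0.230% of the genome up to the last calls, and held 0.115% to 0.147% of the calls of a library but 1.61% and 1.45% of the summed score in Ler and 3.14% and 2.25% in top1a-2.

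**Figure D1:**
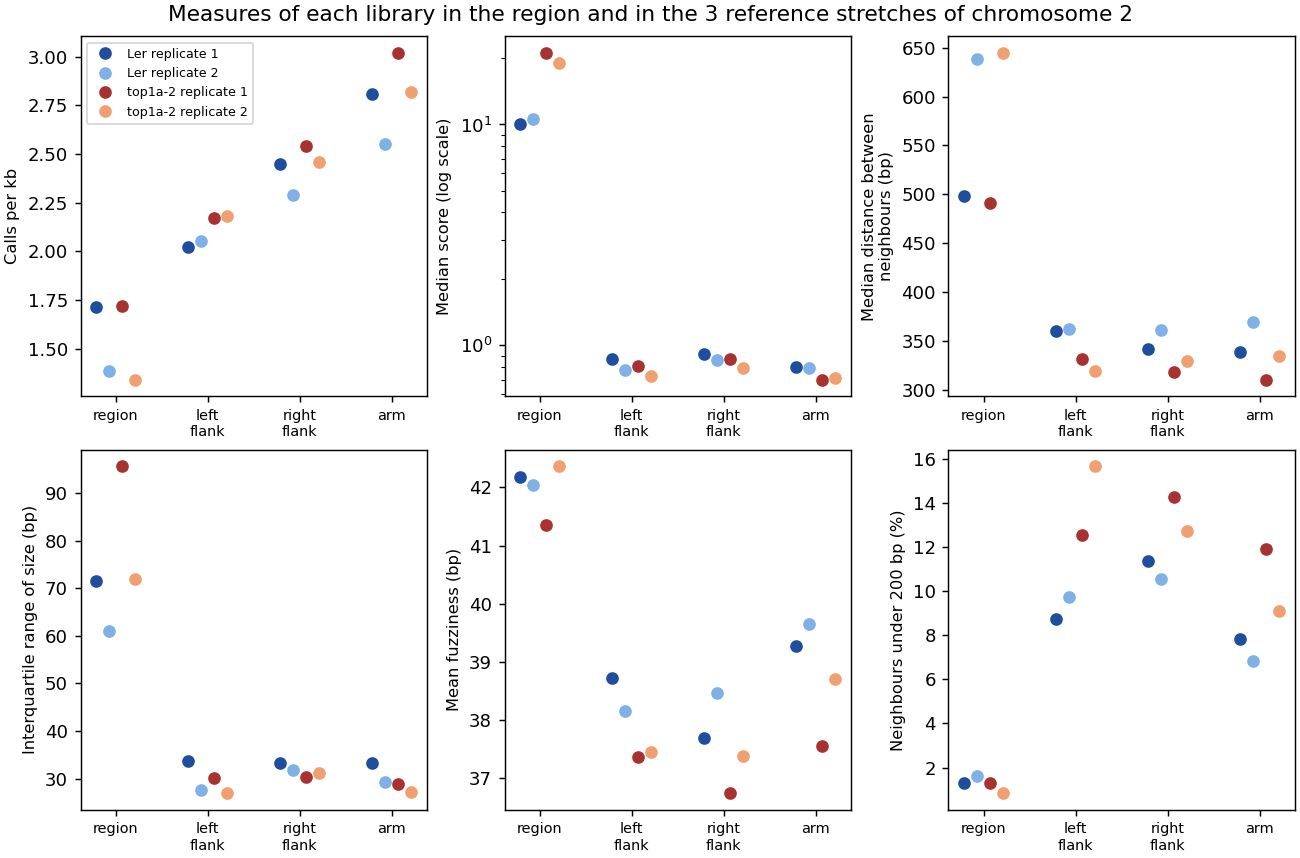
Measures of each library in the region, the left flank, the right flank and the chromosome 2 arm, 1 point per library; the score axis is logarithmic and the calls axis does not start at 0. In the region the calls per kb lie between 1.34 and 1.72, below all reference stretches, and the median score lies between 10.0 and 21.1, above all of them.

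The high scores formed blocks separated by low stretches. In 2 kb steps, 117 of the 135 steps had a high summed score, in 4 blocks at 8 to 48 kb, 52 to 126 kb, 142 to 164 kb and 166 to 264 kb from the left border. The other 18 steps, defined as those under 1/3 of the library's median step of the region in all 4 libraries, lay at 0 to 8 kb, 48 to 52 kb, 126 to 142 kb, 164 to 166 kb and 264 to 270 kb. Of these 18 low steps 7 held no call in any library. Median scores in the high blocks were 10.2 and 11.1 in Ler and 21.6 and 19.5 in top1a-2, and those in the low stretches were 1.28 and 1.03 in Ler and 2.52 and 1.61 in top1a-2. The low stretches held only 18 to 22 calls per library over 36 kb. The blocks and the low stretches were drawn from these values. The contrast between them, and the sharing of the low steps by all 4 libraries, is thus how they were defined.

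**Figure D2:**
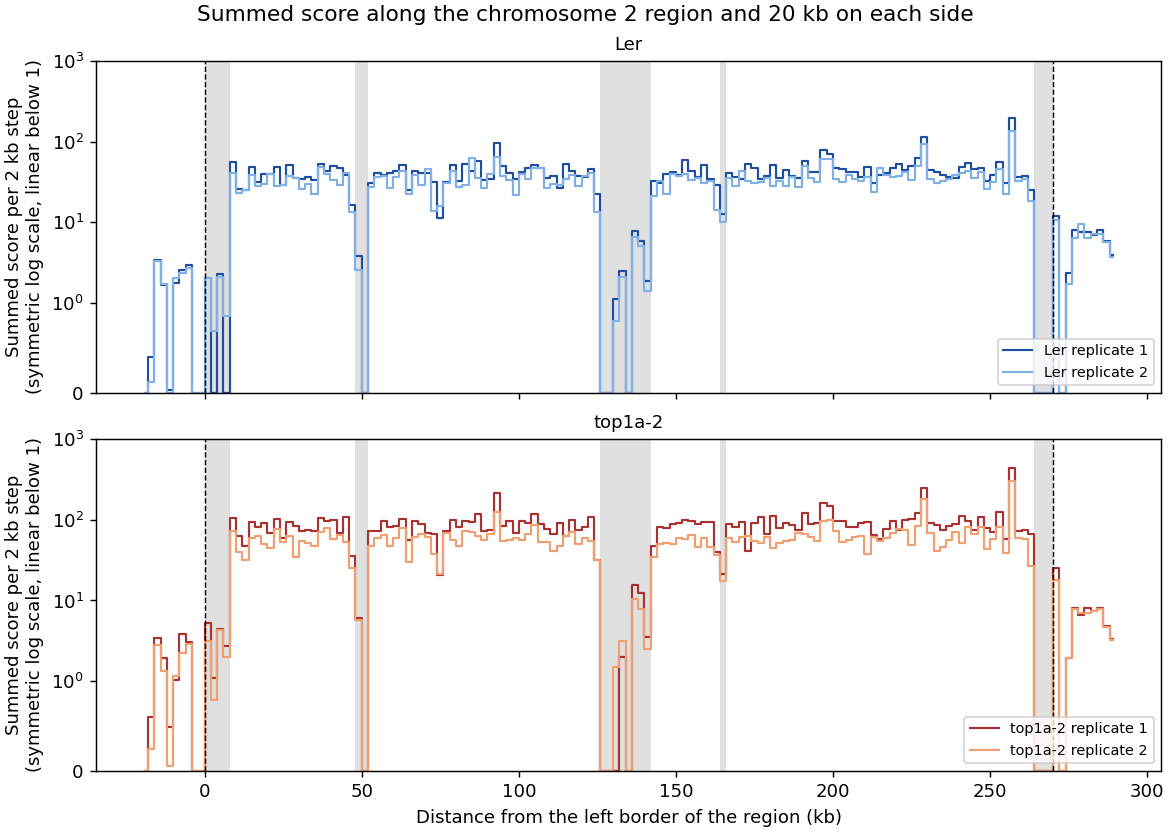
Summed score per 2 kb step along the region and 20 kb on each side, for the Ler libraries above and the top1a-2 libraries below, on a symmetric log scale that is linear below 1. Dashed lines mark the borders and grey bands the 5 low stretches. All 4 libraries rise at 8 kb and peak near 257 kb. The bands were defined as low in all 4 libraries, so the shared drop in them follows from the definition.

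On the left, the rise came 8 kb inside the stated border. The last call of the low stretch lay at 3145633 and 3146099 in Ler and at 3146072 and 3146088 in top1a-2, with scores of 2.28, 0.860, 2.72 and 1.99. The first call of the first high block lay at 3148214 and 3148204 in Ler and at 3148197 and 3148319 in top1a-2, with scores of 14.6, 10.4, 29.9 and 27.3. In all 4 libraries the score rose between these calls. The calls were looked up around the start of the first high block, which all libraries share by definition. Their common interval of under 3 kb therefore follows in part from that definition. Over the 20 kb below the left border the scores summed to 12.8 and 12.3 in Ler and 14.3 and 10.8 in top1a-2. Over the 20 kb above it they summed to 232 and 191 in Ler and 497 and 327 in top1a-2. Below the left border the 2 genotypes overlapped in this sum, and above it they did not.

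On the right, the last call of the region lay between 3403679 and 3403685 in the 4 libraries, with scores of 0.469 and 0.588 in Ler and 0.911 and 0.960 in top1a-2. The next call lay outside, between 3410162 and 3410166, and scored 4.20 and 4.37 in Ler and 11.1 and 7.84 in top1a-2. Both of these positions differed by only a few bp among libraries. They bound a gap, and are not where the high scores end, since the last call inside scored low. Over the 20 kb above the border the median score was 1.18 and 2.19 in Ler and 1.14 and 1.49 in top1a-2. In the arm it was 0.699 to 0.801. Summed scores fell from 423 and 321 in Ler and 915 and 621 in top1a-2 over the 20 kb below the border to 62.6 and 58.5 in Ler and 73.8 and 65.0 in top1a-2 over the 20 kb above it. In 10 kb windows, the window just inside the left border summed to 60.4, 47.0, 120 and 83.0 in the 4 libraries in the same order, against 7.28, 7.10, 7.87 and 6.31 just outside. On the right side the inner window summed to 63.5, 52.2, 141 and 84.5, and the outer one to 30.0, 28.2, 42.2 and 34.9. Outside the right border the genotypes thus did not overlap in summed score, in this window or over 20 kb, and top1a-2 was higher. Their median scores over these 20 kb did overlap.

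Scores within the region were higher in either top1a-2 library than in either Ler library. The median score was 10.3 ± 0.420 (SD, n = 2) in Ler and 20.1 ± 1.54 (SD, n = 2) in top1a-2, a ratio of 1.95. With 2 libraries against 2, the two-sided exact permutation test cannot go below p = 0.333, which it gave here, or 0.515 after Benjamini-Hochberg adjustment over the 17 measures of the region. In the arm, the order of the median scores was the opposite, with both top1a-2 libraries below both Ler libraries. In the flanks the genotypes overlapped. The left flank had 0.872 and 0.772 in Ler and 0.803 and 0.727 in top1a-2. The right flank had 0.917 and 0.863 in Ler and 0.866 and 0.794 in top1a-2. The gap between genotypes in the region spread over its length. Of the 117 high steps 110 had both top1a-2 libraries above both Ler libraries. The ratio of summed scores in the high steps lay between 1.21 and 2.54, with a median of 1.93. Of the 56748 steps of the genome with a call in every library, 19.6% showed that order. Among the 8 low steps with a call in every library 7 showed it as well, with a median ratio of 1.83. High blocks and low stretches thus differed little in ratio, at 1.93 and 1.79 for the median score.

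Taken in windows of 10 kb, 23 of the 27 windows of the region had a median score that was higher in either top1a-2 library than in either Ler library, against 10.8% of 11611 windows of the genome. The median ratio of top1a-2 over Ler was 1.82 in the region and 0.950 over all windows. The exceptions were the windows starting at 3140001, 3310001, 3340001 and 3370001. In the first of them, which spans the left edge, the median score was 8.45 and 1.81 in Ler and 3.36 and 2.13 in top1a-2. Outside the region 11 windows of the genome had a median score over 5 in every library, and 25 windows inside it did. Ratios in the 11 ran from 0.663 to 2.52 with a median of 1.47, and 4 of them had both top1a-2 libraries on top. Those in the 25 ran from 1.36 to 2.81. High-scoring windows elsewhere therefore overlapped the region in this ratio, and their difference was not tested.

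**Figure D3:**
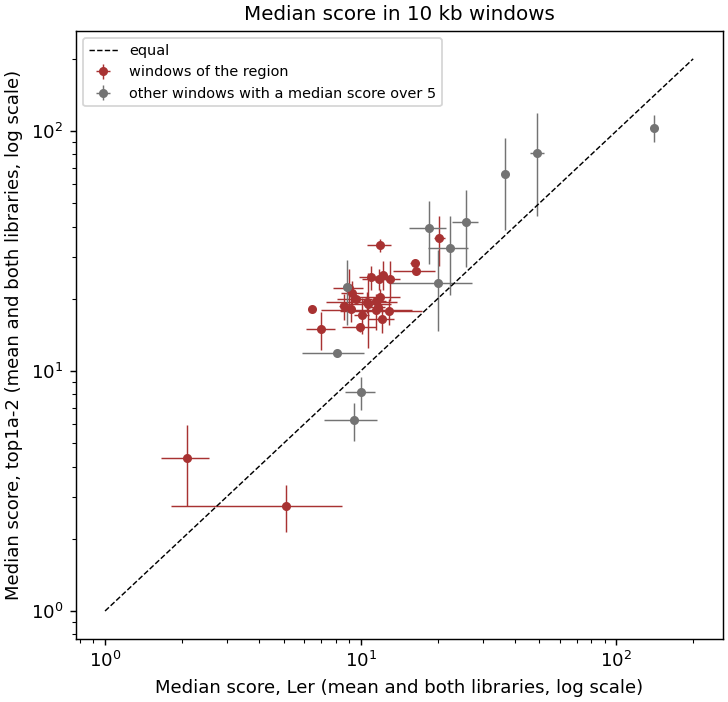
Median score of 10 kb windows in top1a-2 against Ler, both on log axes, for the 27 windows of the region and the 11 other windows with a median score over 5 in all libraries. Points are genotype means and bars reach to the 2 libraries; apart from the window at 3140001, the windows of the region lie above the line of equal scores, whereas 3 of the other 11 lie below it.

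A fit across the genome with limma, on log2 of the summed score per window divided by the library mean, gave a higher value in top1a-2 in all 27 windows. The differences ran from 0.54 to 0.93 on the log2(level + pseudocount) scale with a median of 0.78, against a median of -0.05 over all 11646 windows tested. None of the 27 passed an adjusted p of 0.05 in limma, the smallest adjusted p being 0.533, and 0% of all windows passed. At an unadjusted p under 0.05 all 27 were higher, against 7.85% of all windows in either direction and 0.756% that were higher. The call was not stable: leaving out 1 library gave between 0 and 27 windows of the region past the adjusted threshold, with 1 without Ler replicate 1, 0 without Ler replicate 2, 26 without top1a-2 replicate 1 and 27 without top1a-2 replicate 2. Of all windows 0.0687%, 0.00859%, 1.44% and 0.953% passed in these fits. Each of them sets 1 library against 2, so the spread comes from the other genotype alone and the lone library is assumed to vary alike. Without division by the library mean 24 windows of the region passed, beside 0.738% of all windows.

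The number of calls differed by replicate number rather than by genotype. Replicate 1 of the 2 genotypes had 1.71 and 1.72 calls per kb and replicate 2 of both had fewer, at 1.39 and 1.34. Means were 1.55 ± 0.233 calls per kb in Ler and 1.53 ± 0.267 calls per kb in top1a-2 (SD, n = 2 each; exact permutation p = 1). No window of the region passed in limma for calls, as none did in the genome (0%). At an unadjusted p under 0.05 in limma 2 of the 27 passed, both lower in top1a-2, beside 5.54% of all windows in either direction and 2.68% that were lower. They were the window at 3380001, with 18 and 17 calls in Ler and 14 and 10 in top1a-2 (log2 difference -0.57 ± 0.221 SE), and the window at 3390001, with 23 and 26 calls in Ler and 20 and 19 in top1a-2 (log2 difference -0.39 ± 0.191 SE). The limma adjusted p of both was 0.881.

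Neighbouring calls lay far apart. The median distance to the next call was 498.5 and 638 bp in Ler and 491 and 645 bp in top1a-2, against 338 and 369 bp and 310 and 334 bp in the arm. Each replicate 1 was closer spaced than each replicate 2, and the genotypes overlapped (exact permutation p = 1, n = 2 each). Calls closer than 200 bp, the range of adjacent nucleosomes on 1 array, made up 1.30% and 1.61% of neighbours in Ler and 1.30% and 0.831% in top1a-2. These shares rest on 3 to 6 pairs per library. In the arm they were 7.85% and 6.82% in Ler and 11.9% and 9.10% in top1a-2. Gaps over 500 bp made up 49.1% and 72.4% of the distances in Ler and 49.2% and 74.2% in top1a-2. In the arm they made up 8.04% to 19.7%, and in the flanks 13.2% to 22.2%.

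Gaps over 1000 bp numbered 21 and 34 in Ler and 17 and 41 in top1a-2. That was 4.55% and 9.12% of the distances in Ler and 3.67% and 11.4% in top1a-2. The shares were 5.09% to 6.15% in the left flank, 2.46% to 2.89% in the right flank and 0.248% to 0.426% in the arm. Both replicate 1 libraries thus lay below the left flank. The widest gap recurred at 1 place in every library. It began 124.6 kb from the left border and spanned 7406 and 7312 bp in Ler and 9090 and 7412 bp in top1a-2. The widest gaps of the arm were similar, at 8019 to 9200 bp, and those of the right flank were wider, at 12773 to 13712 bp. In Ler replicate 1 the widest gap of the region ran from 3264586 to 3271992, and in top1a-2 replicate 1 from 3264641 to 3273731. The gap was wider in that library because it lacked the call that the other 3 libraries had between 3271953 and 3271992. A second gap began at 3188988 and 3189000 in Ler and at 3189003 and 3188984 in top1a-2 and spanned 3550, 3785, 3632 and 3808 bp. Another began between 3276729 and 3276838 and ended between 3279559 and 3279564, spanning 2726 to 2830 bp. A further gap ended between 3145616 and 3145633 and spanned 3697 and 2682 bp in Ler and 2705 and 2741 bp in top1a-2. In Ler replicate 1 it was wider than the gap of 3550 bp. All of these gaps overlap low stretches of the score profile, which the scores of the calls around them defined. The widest gap begins, and the second gap ends, inside a neighbouring high block.

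**Figure D4:**
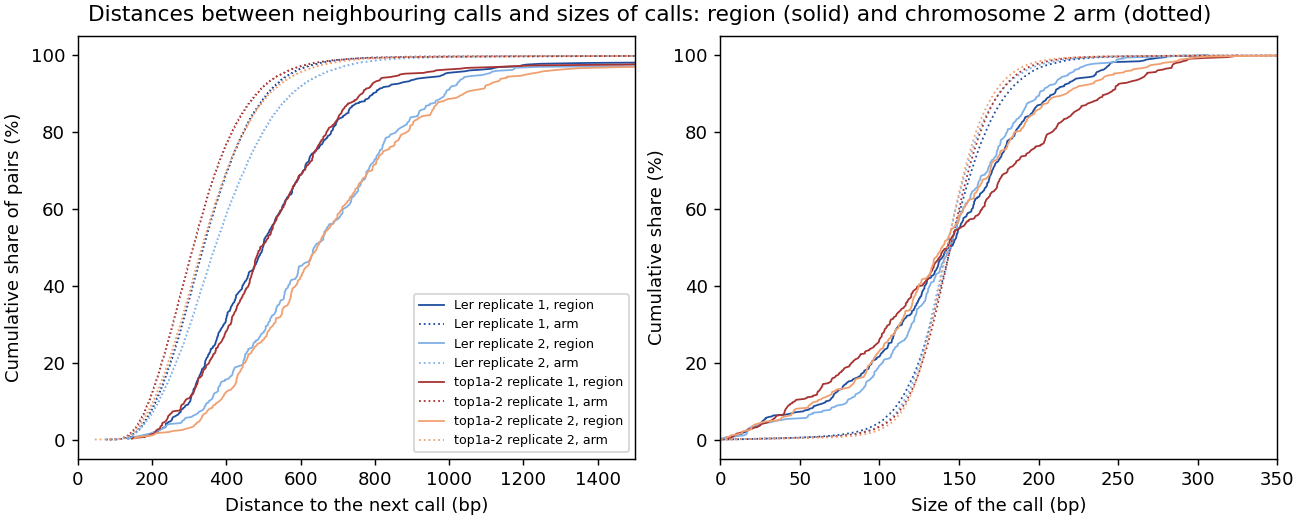
Cumulative share of neighbouring pairs by distance to the next call (left, bp) and of calls by size (right, bp), in the region (solid) and the chromosome 2 arm (dotted) for each library. Distances in the region are shifted to higher values, with medians of 491 to 645 bp, and replicates 1 and 2 separate; sizes in the region spread to both sides of a similar median.

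Sizes in the region were spread widely around a median close to the length of DNA on a nucleosome. The median size was 144.6 and 144.4 bp in Ler and 142.6 and 139.4 bp in top1a-2, and the interquartile range was 71.5 and 61.1 bp in Ler and 95.7 and 72.0 bp in top1a-2. In the arm the interquartile range was only 27.2 to 33.3 bp. Calls under 100 bp made up 21.6% and 19.3% in Ler and 25.9% and 22.9% in top1a-2, against 2.55% to 4.44% in the arm. The flanks lay between, at 9.26% to 13.5%, so part of this excess over the arm was shared by them. Calls over 200 bp made up 13.0% and 10.7% in Ler and 23.7% and 14.1% in top1a-2. Their share was 1.54% to 3.32% in the arm and 3.63% to 5.87% in the flanks. Both tails in the region were larger in either top1a-2 library than in either Ler library (exact permutation p = 0.333 each, adjusted 0.515, n = 2 each). The share over 200 bp differed mainly through top1a-2 replicate 1, since top1a-2 replicate 2 lay close to Ler replicate 1. High scores were not limited to a size: in the 4 libraries calls under 100 bp had median scores of 11.8, 12.1, 23.0 and 19.1, and calls of 100 to 200 bp had 9.37, 10.4, 18.9 and 18.2. Left to right, the median size was 150.2 to 154.0 bp in the first 90 kb, 133.7 to 140.5 bp in the middle 90 kb and 134.2 to 144.1 bp in the last 90 kb.

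Positions were fuzzier than in the arm. Mean fuzziness was 42.2 and 42.0 bp in Ler and 41.4 and 42.4 bp in top1a-2, against 39.3 and 39.7 bp and 37.6 and 38.7 bp in the arm. The genotypes overlapped in the region (exact permutation p = 1, n = 2 each). Narrow calls, of 25 bp fuzziness or less, numbered 5 and 6 in Ler and 7 and 5 in top1a-2, which is 1.08% to 1.60% of the calls against 4.86% to 10.5% in the arm. Of these few calls 3, 5, 5 and 5 lay in the low stretches. No window of the region passed in limma for mean fuzziness, beside 0.00871% of the 11481 windows tested. At an unadjusted p under 0.05 in limma 2 of the 27 passed, both lower in top1a-2, beside 6.86% of all windows in either direction and 6.14% that were lower. They were the window at 3270001, with 44.1 and 43.1 bp in Ler and 32.0 and 41.3 bp in top1a-2, and the window at 3140001, with 44.1 and 44.5 bp in Ler and 42.1 and 37.0 bp in top1a-2 (limma adjusted p = 0.649 and 0.703). The region's median difference of -0.47 bp was smaller in size than the -1.24 bp over all windows.

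Votes per call were high in most of the region. A call had a median of 16.1 and 18.5 votes in Ler and 51.1 and 35.8 votes in top1a-2, both strands summed, whereas in the arm the medians were 0.168 and 0.204 in Ler and 0.101 and 0.122 in top1a-2. Votes per kb were 51.2 and 38.8 in Ler (45.0 ± 8.82, SD, n = 2) and 158 and 89.9 in top1a-2 (124 ± 48.5, SD, n = 2), a ratio of 2.76 without overlap (exact permutation p = 0.333, adjusted 0.515). The same order held for votes per kb in the left flank, at 2.22 and 2.12 in Ler and 7.12 and 4.22 in top1a-2. The median votes of a call there had the opposite order, at 0.214 and 0.228 in Ler and 0.137 and 0.134 in top1a-2. Relative to the left flank the region had 23.1 and 18.3 times the votes per kb in Ler and 22.3 and 21.3 times in top1a-2, where the genotypes overlapped (difference 1.08, exact permutation p = 1, n = 2 each). For the median score this ratio was 11.5 and 13.7 in Ler and 26.3 and 26.1 in top1a-2, without overlap. The low stretches were the exception to the high votes: the step from 3142001 to 3144000 had no call in Ler replicate 1 and 0.110 to 0.134 votes in the other libraries.

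A few calls outside the region carried most of the votes of a list. The 10 calls with the most votes, none of them in the region, held 79.2% to 85.5% of the votes of each list. In the right flank, 10 calls held 89.1% to 95.6% of the votes, and the flank had 118 and 221 votes per kb in Ler and 67.8 and 756 votes per kb in top1a-2. Library means of votes per window were 401 and 458 in Ler and 293 and 1297 in top1a-2. In limma on votes divided by these means, all 27 windows were higher in top1a-2, by a median of 0.71 against -0.82 over all windows, and none passed, beside 0.00859% of all windows. At an unadjusted p under 0.05 none of the 27 passed either, beside 0.404% of all windows. Divided by the library median instead, all 27 were higher at an unadjusted p under 0.05, beside 2.97% of all windows in either direction, with a median difference of 1.70 and none past the adjusted threshold.

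In the votes as deposited, both top1a-2 libraries lay above both Ler libraries in all 27 windows. After division by the library mean, the direction of the votes per window rests on top1a-2 replicate 1. Without it all 27 windows were lower and 22 passed, but 97.9% of all windows passed in that fit, which leaves top1a-2 replicate 2 alone with its high library mean. Without top1a-2 replicate 2 all 27 were higher and 24 passed, beside 0.481% of all windows. Votes were lowest in the windows at 3270001, with 16.6 and 16.8 in Ler and 50.6 and 27.2 in top1a-2, and at 3140001, with 128 and 90.9 in Ler and 316 and 200 in top1a-2. They were highest at 3390001, with 3540 and 2093 in Ler and 11382 and 6867 in top1a-2, and at 3360001, with 1395 and 964 in Ler and 4302 and 3135 in top1a-2.

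The peak of votes lay at 1 site. In all 4 libraries a call near 256.7 kb, at 3396683 and 3396688 in Ler and at 3396712 and 3396684 in top1a-2, was among the 3 calls with the most votes. It had 1038 forward and 413 reverse votes in Ler replicate 1, and 613 forward and 307 reverse votes in Ler replicate 2. In top1a-2 it had 2546 forward and 1485 reverse votes in replicate 1, and 2046 forward and 892 reverse votes in replicate 2. Forward votes exceeded reverse votes at this call in every library. It alone carried 8.79% to 12.1% of all votes in the region. Its size of 53.7 to 80.6 bp was well under that of a nucleosome's DNA. A neighbouring call at 3397034 in Ler replicate 1, 3397126 in top1a-2 replicate 1 and 3397144 in top1a-2 replicate 2 was also among the 3 with the most votes, and in top1a-2 replicate 1 it was the top call, with a score of 207.

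Over the region as a whole the strands were nearly balanced. Forward votes made up 57.8% and 52.5% of the total in Ler and 57.2% and 55.1% in top1a-2, and the median forward share per call was 50.4% and 49.8% in Ler and 50.0% and 50.8% in top1a-2. The excess of forward votes in the sums was thus not seen in the typical call. Calls in which 1 strand had more than 2 times the votes of the other made up 31.1% and 20.6% in Ler and 40.3% and 21.8% in top1a-2. In the arm these shares were 38.4% and 23.5% in Ler and 41.6% and 29.4% in top1a-2. Replicate 1 of both genotypes was less balanced than replicate 2 in the region and in the arm alike.

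Libraries agreed on the outline of the region, and a smaller share of its calls than of the arm's had a partner at the same position. Summed scores of the 135 steps correlated between libraries with Pearson's r of 0.981 to 0.985 and Spearman's rho of 0.699 to 0.816 over the 6 pairs, on log2(summed score + 1). Within the 117 high steps r fell to between 0.798 and 0.853 and rho to between 0.538 and 0.717. These are descriptions over neighbouring steps, which share their library. At single positions, 10.9% to 18.4% of the calls of 1 library had a call of the other within 20 bp, and 4.88% to 7.64% after a shift of 5 kb. In the arm 21.4% to 23.6% had one. Relative to the shifted value, the agreement was 1.92 to 3.01 times in the region and 1.86 to 2.08 times in the arm. The medians over pairs were 2.31 in the region, 1.95 in the arm, 2.59 in the left flank and 2.46 in the right flank. Agreement relative to the shift was thus not below that of the arm. Agreement was 10.9% for the pair within Ler, 18.4% for the pair within top1a-2 and 14.5% to 17.2% for the 4 pairs between genotypes, and this order did not hold at 10 bp or at 40 bp.

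Calls placed alike in all libraries lay mainly in the low stretches. In the high blocks 2 of 445 and 4 of 353 calls in Ler, and 1 of 445 and 1 of 340 calls in top1a-2, had a call within 20 bp in all 3 other libraries. In the low stretches 6 calls of each library had one, of 18 and 21 in Ler and of 19 and 22 in top1a-2. As shares these were 0.225% to 1.13% in the high blocks, 27.3% to 33.3% in the low stretches and 2.92% to 3.48% in the arm. No partner in any other library was found for 69.7% and 72.0% of the calls of the high blocks in Ler and 65.2% and 61.8% in top1a-2, against 50.1% to 52.4% in the arm. These shares were not set against a shift, and the calls of the arm are denser. For pairs of libraries, the share within 20 bp after a shift of 5 kb was 4.88% to 7.64% in the region and 10.9% to 12.2% in the arm. The difference from the arm in these shares thus includes the difference in density.

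**Figure D5:**
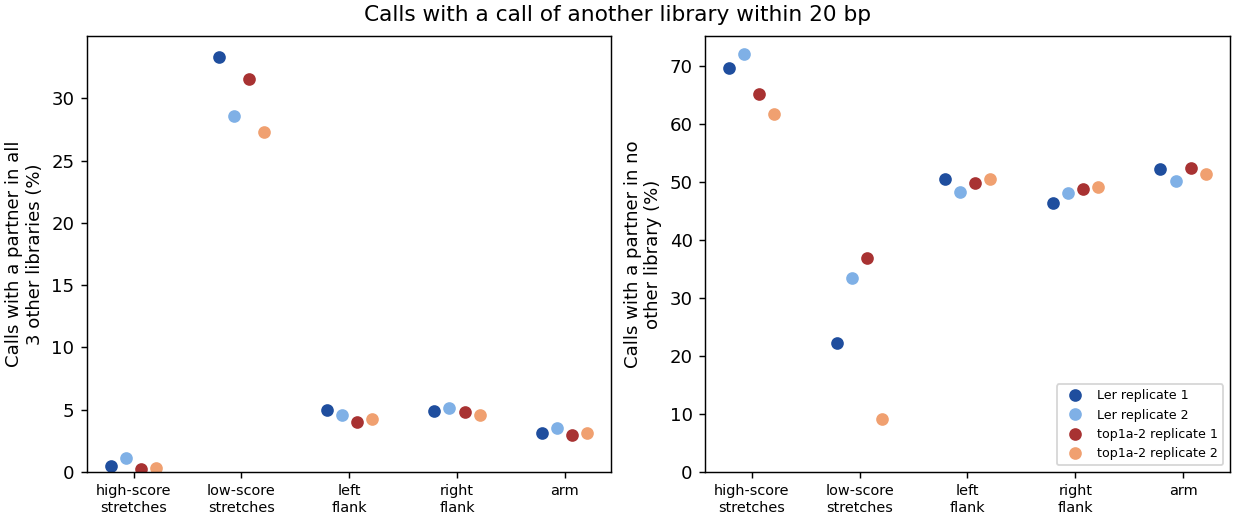
Share of calls with a call within 20 bp in all 3 other libraries (left, %) and in no other library (right, %), for the high-score and low-score stretches of the region, both flanks and the arm, 1 point per library. The low stretches stand above the arm on the left panel at 27.3% to 33.3%, and the high stretches below it at 0.225% to 1.13%. The shares are not adjusted for the density of calls, which is higher in the arm.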

How the data were processed

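Nuclei of inflorescences were digested with micrococcal nuclease, DNA of mononucleosome length was cut from a gel, and TruSeq libraries were sequenced on a HiSeq2000, per the labels' protocols. The authors deposited 1 list of nucleosome calls per library, and the columns are named per the file headers. The confidence score was used as deposited. The deposited votes of the forward and the reverse strand were treated as signal, since they are fractional and never negative. The deposited fuzziness and size were also handled as signal, in bp. The sources used here name no aligner, caller, threshold, scaling or genome build, nor whether positions count from 0 or 1. The last calls lay 356 to 439 kb before the last genes of assembly TAIR10.1, so that gene table was not used and no gene or sequence is given. Depth is unknown.

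The region, its measures and the reference stretches were chosen with earlier results of these data known. Scores, votes per call, size classes and interquartile ranges were measures added after the data were seen. Single values were compared between genotypes with two-sided exact permutation tests over the 6 assignments of labels (smallest p 0.333), adjusted by Benjamini-Hochberg over 17 measures. Values per 10 kb window, divided by the library mean, were fitted as log2(level + 0.1 of the median level) with limma 3.58.1 (variance trend, R 4.3.3) over 11646 of 11714 windows. The other 68 windows had no call in 3 or more libraries. Pseudocounts were 0.103 for calls, 0.00144 for votes and 0.0940 for summed score, and fold changes of sparse windows are understated on this scale. Mean fuzziness was fitted in windows with at least 5 calls per library. The threshold was an adjusted p of 0.05. As no window passed, the 2 with the smallest p in each direction were chosen, besides those with the 2 highest and 2 lowest vote sums, those at the borders and the widest gaps. Other tables and figures were made with Python 3.11.15. Alternatives covered the calls used, borders, references, tolerance, scaling, filter, pseudocount, variance trend, window size, replicate block and leaving out each library.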

Additional observations from a re-analysis of the deposited data

How the results depend on the processing

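Of 331 alternative values 284 counted as unchanged. For measures of the region this meant the same sign only, since their test cannot reach the threshold. For single windows it meant the same sign and side of the limma threshold. For window counts it meant a similar count, and for levels against the reference stretches a value within the SD among libraries. With the replicate number as a block the differences of the measures stay as they were, so these counted as unchanged by construction. The difference between genotypes (top1a-2 minus Ler) in median score kept its sign under every alternative run, at 8.67 to 10.8 without 1 library at a time. Measures close to 0 turned: calls per kb (-0.0204) became 0.00652 in the interior without 20 kb at each border and ran from -0.209 to 0.169 without 1 library, neighbours under 200 bp (-0.390 percentage points) became 0.121 in the interior, and gaps over 500 bp (0.981) became -1.91 there and ran from -11.5 to 13.5 without 1 library. Votes per kb relative to a reference stretch differed by 161 with the arm, but by 1.08 with the left flank and 0.923 with the right flank (exact permutation p = 1 for both). The median distance (-0.25 bp) became 16 bp with calls of 50 to 250 bp and 1.25 bp in the high blocks alone (added after the data were seen), and ran from -77.25 to 76.75 bp without 1 library. The forward share ran from -1.67 to 3.62 and mean fuzziness from -0.749 to 0.253 bp without 1 library. The cause was not tested. Mean position agreement (15.4%) was 9.13% at 10 bp and 26.5% at 40 bp, as a wider tolerance must give.

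Windows of the region past the limma threshold numbered 4 for votes and 24 for summed score without division by the library mean, and 2 for summed score with division by the library median, against 0. Of all windows 50.8%, 0.738% and 0.0773% passed there. Without 1 library, which leaves 1 genotype with a lone library, they numbered 0 to 24 for votes, 0 to 27 for summed score and 0 to 1 for fuzziness, beside 0% to 97.9%, 0.00859% to 1.44% and 0.165% to 0.566% of all windows. Without 1 library the log2 difference ran from -0.27 to 0.74 for calls at 3340001, and for votes from -0.70 to 2.09 at 3140001, -0.85 to 2.11 at 3270001, -0.16 to 2.44 at 3360001 and -0.26 to 2.61 at 3390001. The replicates share only numbers. With the number as a block 19 windows passed for summed score, beside 6.18% of all windows, and 0 for calls, votes and fuzziness, beside 0%, 0% and 0.706%, and deviations of same-numbered libraries correlated over all windows with r = 0.486, 0.080, 0.199 and 0.034. With 2 libraries a genotype and no depth, the precision is that of the spread between libraries.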

Other observations

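Windows outside the region with a median score over 5 in all libraries lay on every chromosome. On chromosome 2 they were the first window of the list and the windows at 3510001 and 3520001 in the right flank. The window at 3510001 had median scores of 12.9 and 27.4 in Ler and 14.6 and 31.9 in top1a-2, where replicate 2 of both genotypes was the higher. The highest, on chromosome 3 at 14010001, had 137 and 144 in Ler and 117 and 90.4 in top1a-2, with both top1a-2 libraries below both Ler libraries.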
